A study of Mus musculus with 9 samples.

Results

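NF-kappaB is a family of transcription factors that carries signals from cytokine and pattern-recognition receptors to inflammatory and survival genes. Its dimers are held in the cytoplasm by inhibitor proteins, the IkappaBs, until a kinase complex marks the inhibitor for degradation and the dimer enters the nucleus. Several of the inhibitor genes are themselves induced by NF-kappaB, so that their transcripts are often read as a sign of pathway activity. In the brain the pathway is known for inducible activity in microglia, astrocytes and endothelium.

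The 10 genes described here were chosen by symbol, out of 26602 genes with a count. They are the 5 subunits Nfkb1, Nfkb2, Rel, Rela and Relb, the 3 cytoplasmic inhibitors Nfkbia, Nfkbib and Nfkbie, and the 2 nuclear inhibitors Nfkbiz and Nfkbid. They were measured in midbrain with the SNpc (substantia nigra pars compacta) of 4 DJ-1+/+ mice (wild type, WT in the labels) and 5 DJ-1-/- mice (DJ-1 KO in the labels), all 3 to 4 months old, with no treatment given in the labels. The knockout carries a targeted allele of Park7, the gene of DJ-1, in every cell, after 7 backcross generations to C57BL/6, and heterozygous animals were bred to obtain it. Each library came from 1 mouse. It was a 3′ mRNA-seq library with unique molecular identifiers (UMIs), in which a tag near the polyadenylated end is counted once per molecule, and levels of different genes were compared without dividing by length for that reason.

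The libraries held 841974 to 1098125 counts, and every DJ-1-/- library was deeper than every DJ-1+/+ library. Values are therefore given as cpm, counts per 1000000 of the library, and 3 counts, taken as the lowest level that can be shown, equal 2.73 to 3.56 cpm (counting error only). Park7 was at 119 to 157 cpm in DJ-1+/+ and 14.4 to 26.4 cpm in DJ-1-/- mice, as labelled. Markers of neighbouring tissue differed between mice. The 8 choroid plexus markers summed to 1009 cpm in DJ-1+/+ replicate 4 and to 285 to 581 cpm in the other 8 mice, and the 8 cerebellar neuron markers to 1191 cpm in DJ-1+/+ replicate 1 and to 392 to 667 cpm in the others. The 8 dopaminergic neuron markers of the labelled region all had counts, and their sum was 511 to 849 cpm in DJ-1+/+ and 702 to 907 cpm in DJ-1-/- mice. These lists differed in direction between genotypes, with no gene of them called after adjustment. In edgeR's test 8 of 8 choroid plexus markers (6 at an unadjusted p below 0.05, median log2 fold change −1.63) and 8 of 8 cerebellar markers (3, median −0.62) had lower values in DJ-1-/- mice, and 8 of 8 dopaminergic markers (3, median 0.27) higher ones. Markers of one list are not separate observations of the genotype. The choroid plexus sums of DJ-1+/+ replicates 2 and 3 were 285 and 344 cpm, against 297 to 427 cpm in DJ-1-/- mice. Cerebellar sums were 392 to 1191 cpm in DJ-1+/+ and 415 to 652 cpm in DJ-1-/- mice. The part of these lists in the members' values was examined only by leaving out DJ-1+/+ replicates 1 and 4. In such bulk tissue fewer cells of a type and less RNA per cell cannot be told apart.

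Sequence before the start sites was compared first, since a NF-kappaB binding motif there is what several of these genes are known for. RefSeq windows of 300 bases around a start (GRCm38.p6) matched 7 of the 10 members (11 windows). Nfkb1, Relb and Nfkbiz had no window. The kappaB consensus, searched on both strands, was in 4.51% of all 32851 windows, and 1388 of 27025 genes had it in at least 1 window. It was in at least 1 window of Nfkb2, Rel, Nfkbia, Nfkbie and Nfkbid, and in no window of Rela and Nfkbib. The median GC content was 52.7% over all windows and ran from 56.3% to 75.0% in those of the members.
The 100 bases before the first start are printed for 4 members. Nfkbia and Nfkbib were the most abundant members and differ in the motif, Rel varied most between mice relative to counting error, and Nfkbid was the least abundant. Capitals mark kappaB consensus matches on either strand, and all 4 sequences run 5′ to 3′ on the strand of the gene.
Nfkbia (chr12:55492648-55492747, minus strand): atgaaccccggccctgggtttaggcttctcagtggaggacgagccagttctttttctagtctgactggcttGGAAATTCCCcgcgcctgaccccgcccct
Nfkbib (chr7:28766645-28766744, minus strand): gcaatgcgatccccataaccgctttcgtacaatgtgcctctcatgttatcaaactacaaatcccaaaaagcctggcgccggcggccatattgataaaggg
Rel (chr11:23770970-23771069, minus strand): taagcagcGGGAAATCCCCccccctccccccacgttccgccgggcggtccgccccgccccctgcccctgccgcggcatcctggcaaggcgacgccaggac
Nfkbid (chr7:30421631-30421730, plus strand): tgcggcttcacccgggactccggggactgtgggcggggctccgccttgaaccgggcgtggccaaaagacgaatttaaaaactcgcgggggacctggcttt
The Nfkbib bases lie inside the longer gene that GENCODE draws, which begins further upstream. The Nfkbia match lies 29 to 20 bases before the start and reads GGGAATTTCC on the other strand. In Rel overlapping matches span 92 to 82 bases before the start. Nfkbid has none in its first window, and 2 in its second window. A match describes the letters in the window and shows no binding.

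The question put to the counts was whether the level of any member differed between the genotypes. No difference was called for any of the 10. All 10 passed the filter of at least 10 counts over the 9 libraries, and edgeR's quasi-likelihood test put 0 of 10 below an unadjusted p of 0.05, against 2.83% of the 18127 genes tested. DESeq2 also gave 0 of 10. The adjusted p was 0.99997 for each member (edgeR, Benjamini-Hochberg over all genes tested, of which 0.00552%, a single gene, was called). That gene was Park7 itself, with a log2 fold change of −2.71. The cpm of the genotypes overlapped for 10 of 10 members, and were apart for 1.25% of all genes tested. As edgeR's log2 fold changes of DJ-1-/- against DJ-1+/+, 6 members were above 0 and 4 below, with a median of 0.06, and the median over all genes tested was 0.01. The 3 cytoplasmic inhibitors had values above 0 and both nuclear inhibitors values below 0.

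**Figure D1:**
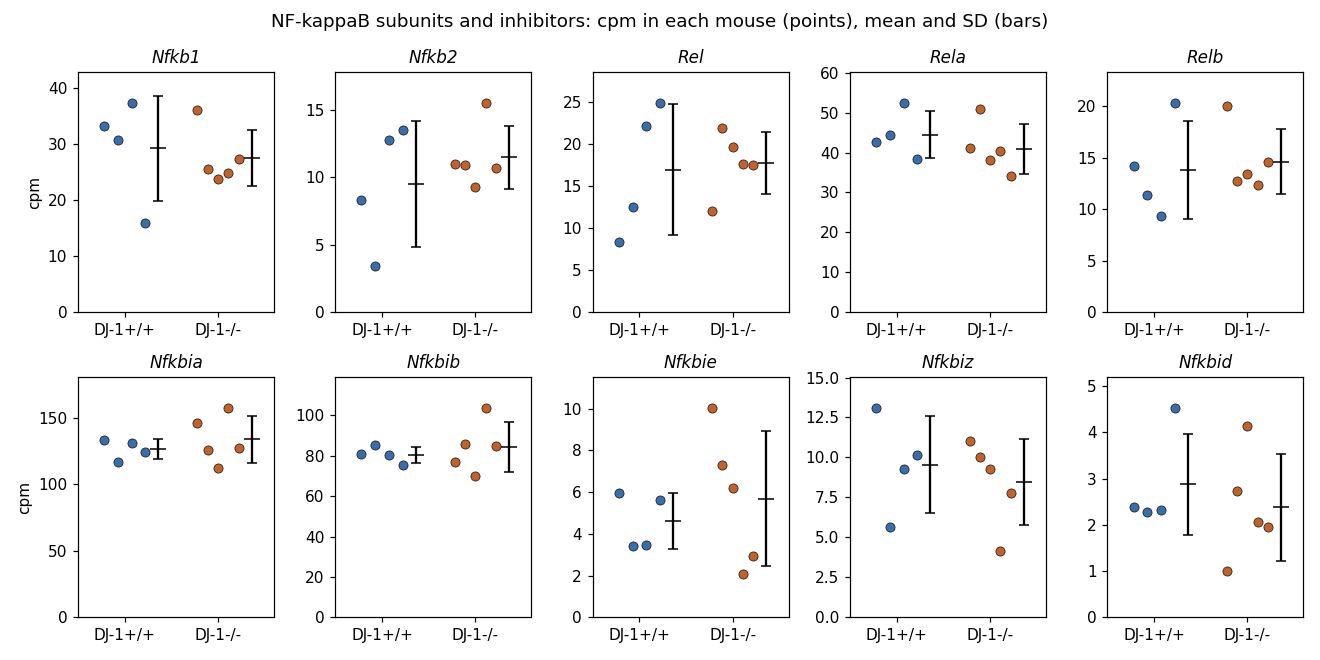
Level of each member in cpm (vertical axes from 0, a scale for each gene) in the 4 DJ-1+/+ and 5 DJ-1-/- mice. Points are single mice in order of replicate number, and bars give the mean and SD of the genotype. The genotypes overlap in all 10 panels.

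The genes stood in an order of abundance that was clearest at its top. The inhibitors Nfkbia and Nfkbib led with 131 ± 13.9 and 82.5 ± 9.31 cpm (SD, n = 9), followed by the subunits Rela at 42.5 ± 5.98, Nfkb1 at 28.3 ± 6.78, Rel at 17.4 ± 5.45, Relb at 14.3 ± 3.70 and Nfkb2 at 10.6 ± 3.47 cpm (SD, n = 9). At the low end were Nfkbiz at 8.94 ± 2.72, Nfkbie at 5.22 ± 2.51 and Nfkbid at 2.60 ± 1.09 cpm (SD, n = 9). The lowest Nfkbia value (112 cpm) was above the highest Nfkbib value (103 cpm), and the lowest Nfkbib value (70.1 cpm) above the highest Rela value (52.4 cpm). Further down, the ranges of neighbours overlapped. Rela was still above Nfkb1 in 9 of 9 mice and Nfkbiz above Nfkbie in 9 of 9. Rel exceeded Relb in 7 of 9, Relb exceeded Nfkb2 in 7 of 9, and Nfkb2 exceeded Nfkbiz in 5 of 9 with 2 ties. The order of these neighbours was thus not the same in every mouse, and no gene was tested against another. Nfkbia and Nfkbib together made up 58.7% to 68.7% of the summed cpm of the 10 members in every mouse.
The scale these levels were read on was narrow at its top. Only 415 of 18127 tested genes had a mean above 200 cpm, the highest being Gm42418 at 1265 cpm. Among genes with a mean of 100 to 200 cpm the spread between mice had a median of 0.918 times counting error, and 55.6% were under 1. Counting error alone puts this median slightly below 1, so these genes varied about as much as counting error gives. Genes with a mean from 200 cpm up varied by more than counting error (a median of 1.41 times). Whether ratios between abundant members are compressed by this was not tested.

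Among the subunits, Rela encodes p65, the subunit with a strong activation domain that pairs with p50 in the canonical dimer (chromosome 19, positions 5637483 to 5648130). It was at 42.8, 44.3, 52.4 and 38.4 cpm in DJ-1+/+ and at 41.0, 51.0, 38.2, 40.3 and 34.1 cpm in DJ-1-/- mice. The lowest mouse was a DJ-1-/- and the highest a DJ-1+/+ animal, and the rest were interleaved. The means were 44.5 ± 5.84 (SD, n = 4) and 40.9 ± 6.24 cpm (SD, n = 5), with an exact two-sided permutation p of 0.381, the smallest among the 10 members. With 4 mice against 5 this test cannot go below 0.0159. In edgeR's fit the log2 fold change came to −0.12 (standard error 0.16), and its 95% interval, from 0.728-fold to 1.17-fold, bounds the change of Rela on either side.
Nfkb1 encodes p105, the precursor of p50 (chromosome 3, positions 135584655 to 135691547). Its level was 33.3, 30.7, 37.2 and 15.8 cpm in DJ-1+/+ and 36.0, 25.5, 23.7, 24.8 and 27.3 cpm in DJ-1-/- mice. The lowest value of all was DJ-1+/+ replicate 4, the mouse with the most choroid plexus signal, and the other 3 DJ-1+/+ mice were above 4 of the 5 DJ-1-/- mice. The means were 29.2 ± 9.36 (SD, n = 4) and 27.5 ± 4.96 cpm (SD, n = 5), with an exact permutation p of 0.746. On the log2 scale edgeR put DJ-1-/- at −0.09 (standard error 0.24) against DJ-1+/+. Without DJ-1+/+ replicate 4 it was −0.29 (edgeR, unadjusted p = 0.177), and the part of choroid plexus tissue in this value was not tested.
Rel encodes c-Rel, a subunit best known from lymphoid and myeloid cells (chromosome 11, positions 23736847 to 23770970). It had 8.31, 12.5, 22.1 and 24.8 cpm in DJ-1+/+ and 12.01, 21.9, 19.6, 17.6 and 17.5 cpm in DJ-1-/- mice. The DJ-1+/+ mice held both the 1 lowest and the 2 highest values, so that all DJ-1-/- mice lay inside their range. The means were 16.9 ± 7.81 (SD, n = 4) and 17.7 ± 3.65 cpm (SD, n = 5), with an exact permutation p of 0.889. For Rel the log2 fold change came to 0.06 (standard error 0.31). Leaving out DJ-1+/+ replicate 1, the mouse with the most cerebellar signal, turned it to −0.16.
Relb encodes the subunit of the non-canonical arm, and Nfkb2 encodes p100, whose processing to p52 frees RelB. Relb lies on chromosome 7 from 19606217 to 19629438 and Nfkb2 on chromosome 19 from 46304320 to 46312385. Relb was at 14.3, 11.4, 9.31 and 20.3 cpm in DJ-1+/+ and at 20.02, 12.7, 13.4, 12.4 and 14.6 cpm in DJ-1-/- mice. One mouse of each genotype stood near 20 cpm and the remaining 7 were between 9.31 and 14.6 cpm. The exact permutation p was 0.730 and the log2 fold change 0.08 (standard error 0.29).
Nfkb2 was at 8.31, 3.41, 12.8 and 13.5 cpm in DJ-1+/+ and at 11.01, 10.9, 9.28, 15.5 and 10.7 cpm in DJ-1-/- mice. The low mean of DJ-1+/+ rests on replicate 2, which had 3 counts, and without it the log2 fold change went from 0.27 (standard error 0.37) to −0.02. The exact permutation p over all mice was 0.460. The last 299 bases of Nfkb2 overlap the end of Psd on the other strand. Psd had 807 counts in all and Nfkb2 91, and the use of strand in counting is not given in the sources used here. How tags from this overlap were counted is therefore not known, and the Nfkb2 counts could be too high or too low.

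Nfkbia encodes IkappaB-alpha, the classic inhibitor that is degraded within minutes of stimulation and resynthesised under NF-kappaB itself (chromosome 12, positions 55489410 to 55492647). Its counts were 112, 103, 113 and 110 in DJ-1+/+ and 146, 138, 109, 152 and 131 in DJ-1-/- mice, and as cpm 133, 117, 131 and 124 against 146, 126, 112, 157 and 128. Replicates 4 and 1 of DJ-1-/- were the highest mice and replicate 3 of DJ-1-/- the lowest, with all DJ-1+/+ mice between them. The means were 126 ± 7.34 (SD, n = 4) and 134 ± 17.7 cpm (SD, n = 5), with an exact permutation p of 0.492. Its log2 fold change of 0.08 had a standard error of 0.10, with a 95% interval from 0.917-fold to 1.22-fold. It was the narrowest interval among the members.
Nfkbib encodes IkappaB-beta, which is known to return more slowly after stimulation (chromosome 7, positions 28758251 to 28767512). It was at 80.8, 85.2, 80.3 and 75.6 cpm in DJ-1+/+ and at 77.1, 85.6, 70.1, 103 and 84.8 cpm in DJ-1-/- mice. The DJ-1+/+ mice were close together, and the DJ-1-/- mice reached both below and above them. The means were 80.5 ± 3.93 (SD, n = 4) and 84.2 ± 12.4 cpm (SD, n = 5), with an exact permutation p of 0.683. For Nfkbib the log2 fold change came to 0.07 (standard error 0.11, 95% interval from 0.885-fold to 1.24-fold). Ccer2, with 59 counts in all, overlaps the last 718 bases of Nfkbib on the other strand.
Nfkbie, the gene of IkappaB-epsilon, lies on chromosome 17 from 45555703 to 45563169 and was hardly above detection, with 5, 3, 3 and 5 counts in DJ-1+/+ and 10, 8, 6, 2 and 3 counts in DJ-1-/- mice, and 4 of 9 libraries were at or under 3 counts. In cpm 3 of the DJ-1-/- mice were above, and the other 2 below, every DJ-1+/+ mouse. edgeR gave a log2 fold change of 0.30 (standard error 0.49, exact permutation p of the cpm 0.587), and its 95% interval reached from 0.595-fold to 2.55-fold.
DJ-1-/- replicate 4 had the highest summed level of the 3 cytoplasmic inhibitors, 262 cpm, where the other 8 mice had 189 to 233 cpm. The cytoplasmic inhibitors summed to 1.61 to 2.06 times the subunits in DJ-1+/+ and to 1.79 to 2.37 times in DJ-1-/- mice, so the genotypes overlapped here too.

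The nuclear inhibitors act on dimers at their target genes. Nfkbiz encodes IkappaB-zeta, a coactivator of secondary response genes such as those of acute-phase and antimicrobial proteins (chromosome 16, positions 55811375 to 55838899). Counts of Nfkbiz were 11, 5, 8 and 9 in DJ-1+/+ and 11, 11, 9, 4 and 8 in DJ-1-/- mice. As levels these were 13.1, 5.68, 9.31 and 10.2 cpm in DJ-1+/+ and 11.01, 10.02, 9.28, 4.13 and 7.80 cpm in DJ-1-/- mice. The highest mouse was DJ-1+/+ replicate 1 and the lowest DJ-1-/- replicate 4. edgeR gave a log2 fold change of −0.17 (standard error 0.37, exact permutation p of the cpm 0.571).
Nfkbid encodes IkappaB-NS, known for the development of B cells and regulatory T cells and for limiting cytokine genes in macrophages, and lies on chromosome 7 from 30421732 to 30428746. Over all libraries 22 counts fell on Nfkbid, 10 in DJ-1+/+ and 12 in DJ-1-/- mice. By mouse these were 2, 2, 2 and 4 counts in DJ-1+/+ and 1, 3, 4, 2 and 2 counts in DJ-1-/- mice, so that 7 of 9 libraries were at or under 3 counts. For Nfkbid this came to a log2 fold change of −0.27 (standard error 0.57, exact permutation p of the cpm 0.508). Its 95% interval ran from 0.358-fold to 1.93-fold. Of the leukocyte markers, which bear on the lymphoid and myeloid cells named above, 3 of 9 had no count in any library (Cd3g, Cd79a and Ly6g), and the list summed to 5.64 to 15.4 cpm in DJ-1+/+ and 0.974 to 16.5 cpm in DJ-1-/- mice.

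**Figure D2:**
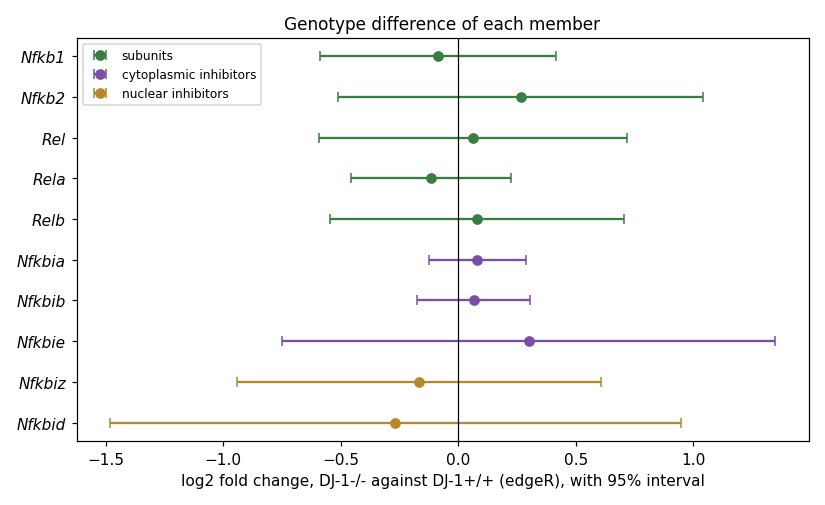
Log2 fold change of each member in DJ-1-/- against DJ-1+/+ mice from edgeR (horizontal axis, points) with its 95% interval (bars), coloured by role. All 10 intervals include 0, and the narrowest is that of Nfkbia (1114 counts in all) and the widest that of Nfkbid (22 counts).

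How far the mice of one genotype differed was set against counting error, as the chi-square of the counts within genotypes divided by its 7 degrees of freedom. Counting error alone gives this value a mean of 1 and a median slightly below 1. Rel (1.77), Nfkb1 (1.64) and Nfkbia (1.47) were the members with the most spread, and Nfkbid (0.475), Nfkbiz (0.836) and Rela (0.865) those with the least. The median over all genes tested was 1.12 and its 5th and 95th percentiles were 0.358 and 4.12, so all 10 members lay within the usual range.

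**Figure D3:**
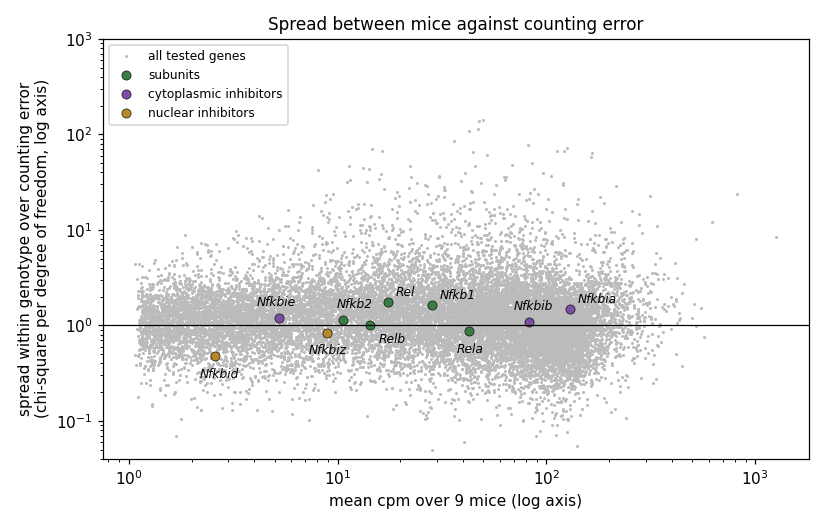
Spread within genotype over counting error (vertical log axis) against mean level in cpm (horizontal log axis) for all 18127 genes tested (grey) and the 10 members (coloured by role). The members lie among the other genes, from 0.475 for Nfkbid to 1.77 for Rel, and the line marks 1.

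Across the 9 mice Nfkbia and Nfkbib had a Pearson r of 0.63 on log2(cpm + 1). This ranked Nfkbib 453rd among the 10927 genes of at least 20 cpm by likeness to Nfkbia. DJ-1-/- replicate 4 was highest in both genes (157 and 103 cpm) and DJ-1-/- replicate 3 lowest in both (112 and 70.1 cpm). Among the DJ-1+/+ mice, replicate 2 was lowest in Nfkbia (117 cpm) and highest in Nfkbib (85.2 cpm), so the r does not describe every mouse. The genes most like Nfkbia were Ndufs6, Dync1li1 and Tpi1 (r from 0.92 to 0.93), and those most like Nfkbib were Dnaja1, Sars and Psmd7 (r from 0.94 to 0.95). Rela was unlike both, with r of 0.02 and 0.11. These are descriptions over 9 libraries that differ in depth and in markers of neighbouring tissue, and the best matches were picked from 10927 genes.

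Other genes of the pathway were taken from lists of its parts. Of 90 such genes 68 passed the filter, 32 with log2 fold changes above 0 and 36 below, and their median was −0.02. In edgeR's test 1 of the 68 came below an unadjusted p of 0.05, with a lower level in DJ-1-/- mice, where 1.26% of all genes tested were called in that direction. None was called in the other direction (1.57% of all genes tested were), and none had an adjusted p under 0.05. The gene was Irak1, the kinase that links the IL-1 and Toll-like receptor adaptor to Traf6. It had 109, 96, 97 and 105 counts in DJ-1+/+ and 115, 101, 93, 95 and 101 counts in DJ-1-/- mice, from libraries that were deeper in DJ-1-/-. Its level was 117 ± 8.87 (SD, n = 4) and 99.9 ± 8.87 cpm (SD, n = 5), and the ranges of 109 to 129 and 92.0 to 115 cpm overlapped. Its log2 fold change came to −0.23 (standard error 0.09, unadjusted p = 0.0200 and adjusted p = 0.99997 from edgeR, exact permutation p = 0.0476). Of 5 genes read for sex, Xist and the Y-linked Ddx3y, Eif2s3y, Kdm5d and Uty, 1 was higher and 4 were lower in DJ-1-/- mice. Their median log2 fold change was −1.13, but it mixes Xist, a female marker, with the Y-linked male markers and so does not measure sex. The edgeR test put none of the 5 below an unadjusted p of 0.05. Single mice were not assigned a sex from these genes, and whether the sexes were unevenly spread over the genotypes was not tested. Irak1 itself lies on the X chromosome from 74013914 to 74023918. With log2 cpm of Xist, the transcript of the inactive X, as a covariate the unadjusted p was 0.0586, and with DESeq2 it was 0.05002. It was 0.0814 without DJ-1+/+ replicate 1, 0.221 without DJ-1+/+ replicates 1 and 4, and 0.0516 without DJ-1-/- replicate 2. Of the 18 alternatives, 13 gave Irak1 an unadjusted p under 0.05 (edgeR). Its log2 fold change was between −0.29 and −0.15 in all 18.

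**Figure D4:**
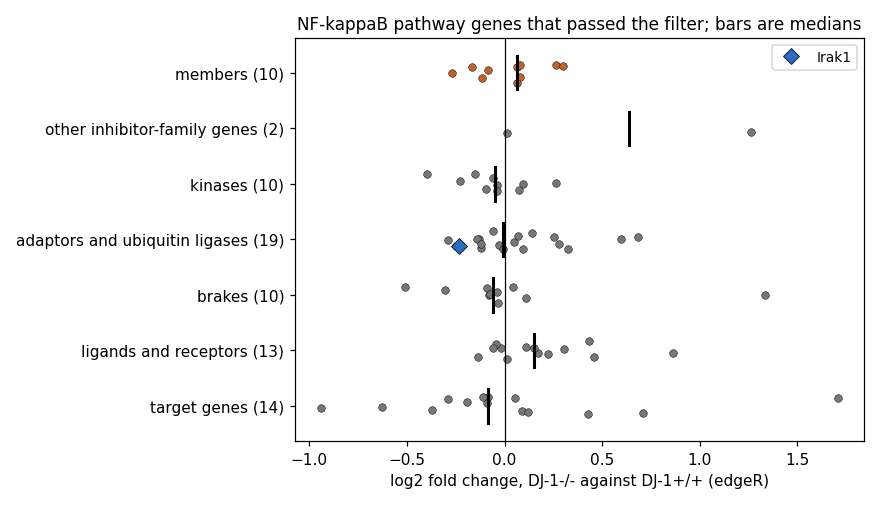
Log2 fold change of DJ-1-/- against DJ-1+/+ mice from edgeR (horizontal axis) for the 10 members and for the 68 other pathway genes that passed the filter, by list, with the number of genes in brackets. Points are genes, black bars are medians and the diamond is Irak1, at −0.23. The members lie between −0.27 and 0.30.

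The kinase list holds the IkappaB kinase subunits Chuk, Ikbkb and Ikbkg, other kinases, and the kinase adaptors Tab1, Tab2 and Tab3. It had 3 of 10 tested genes above 0 and 7 below, with no call. Its smallest p values were those of Tab2, an adaptor of the kinase TAK1 (log2 fold change −0.15, standard error 0.08, unadjusted p = 0.0876), and Tbk1, an IkappaB kinase-related kinase (0.26, standard error 0.16, unadjusted p = 0.128), both from edgeR. The lowest value was that of Map3k14, the kinase of the non-canonical arm that is upstream of p100, at −0.40 (standard error 0.40). The 19 adaptors and ubiquitin ligases had 9 above 0 and 10 below. Among those of at least 5 cpm, Traf6, the ligase downstream of Irak1, had the lowest value at −0.29 (standard error 0.20), and Traf5 the highest at 0.60 (standard error 0.50). Apart from Irak1, edgeR's test put no gene of either list below an unadjusted p of 0.05.
Of the 10 brakes of the pathway, such as deubiquitinases, 3 were above 0 and 7 below with no call. Tnip2, a partner of the deubiquitinase A20, was at −0.31 (standard error 0.22), Commd1 at 0.11 (standard error 0.20), and Zc3h12a, an RNase that shortens the life of cytokine transcripts, at 1.33 (standard error 0.88) on 15 counts in all. The other inhibitor-family genes were Bcl3 and Nfkbil1. Bcl3, a nuclear relative of the inhibitors that binds p50 and p52 dimers, had 4, 1, 0 and 1 counts in DJ-1+/+ and 6, 6, 5, 4 and 1 counts in DJ-1-/- mice (exact permutation p of the cpm 0.111). Its counts overlapped and its log2 fold change of 1.26 had a standard error of 0.71 (edgeR, unadjusted p = 0.0952). Without DJ-1+/+ replicate 1 it was 2.33 (edgeR, unadjusted p = 0.0143, adjusted p = 0.999). Nfkbil1 was at 0.01 (standard error 0.21).
Of 20 ligands and receptors 13 were tested, 9 above 0 and 4 below with no call. Tnfrsf1a, the main TNF receptor, was at 36.9 ± 1.89 (SD, n = 4) and 41.5 ± 6.23 cpm (SD, n = 5), with an exact permutation p of 0.175. Tlr2 had a log2 fold change of 0.86 (standard error 0.64) on 37 counts, Tnfrsf12a one of 0.46 (standard error 0.48) and Il1r1, the signalling receptor of IL-1, one of −0.13 (standard error 0.34). The ligands themselves were hardly seen. Over all 9 libraries Tnf had 1 count, Il1b 4, Il1a 7, Lta 3 and Ltb 4.
Of 28 target genes 14 were tested, 6 above 0 and 8 below with no call. Csf1, the growth factor of microglia, was at 56.1 ± 10.8 (SD, n = 4) and 43.2 ± 12.1 cpm (SD, n = 5), a log2 fold change of −0.37 (standard error 0.20, edgeR, unadjusted p = 0.0788). The complement gene C3 was at 0.71 (standard error 0.50), and Plau, the urokinase gene, at 1.71 (standard error 0.86, edgeR, unadjusted p = 0.0650) on 13 counts, with the same exact permutation p of the cpm as Irak1, 0.0476. The other 14 targets did not pass the filter. Among them Il6 had 2 counts over all 9 libraries, Ccl2 1, Cxcl1 4, Cxcl2 2, Cxcl10 5, Nos2 6 and Lcn2 4. Of all pathway genes 18 had 1 to 7 counts in all and 4 had none (Cd40lg, Csf2, Saa3 and Cfb). A count of 0 over 8528004 counts allows up to 0.352 cpm, which covers counting error only.
Markers of the cells in which the pathway is known to be inducible overlapped between genotypes. The 12 microglia markers summed to 816 to 849 cpm in DJ-1+/+ and 782 to 900 cpm in DJ-1-/- mice, the 8 astrocyte markers to 1618 to 1877 and 1621 to 1889 cpm, and the 8 endothelial markers to 509 to 636 and 499 to 598 cpm. By edgeR's log2 fold change 9 of 12 microglia, 4 of 8 astrocyte and 1 of 8 endothelial markers were above 0 in DJ-1-/- mice. The medians were 0.04, 0.002 and −0.04. In these 3 lists edgeR's test gave no gene an unadjusted p below 0.05. This was in contrast to the choroid plexus, cerebellar and dopaminergic lists above and to 1 of 5 blood markers, which was lower in DJ-1-/- mice.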

How the data were processed

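Midbrain RNA of 4 DJ-1+/+ and 5 DJ-1-/- mice was sequenced as 3′ mRNA-seq libraries, 1 mouse per library. The authors deposited UMI counts per gene by Ensembl identifier, as whole numbers without normalization. The submitters' processing notes name fastp 0.20.0, STAR 2.7.3a, featureCounts 2.0.0, UMI-tools 1.0.0 and GRCm38. The use of strand is not given in the sources used here. Genes not listed in a library were set to 0 counts. Symbols and positions are from GENCODE M21 (GRCm38).

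Genes with at least 10 counts in all were tested with edgeR 4.0.16 (TMM, glmQLFit, glmQLFTest, genotype as the only term) in R 4.3.3, with Benjamini-Hochberg adjustment. The standard error is the log2 fold change divided by the root of F, and 95% intervals use its t quantile. Single levels were compared as cpm by exact permutation (two-sided, 126 splits of 4 against 5 mice) (scipy 1.17.1). All members were named. Of each pathway list the 2 smallest p, the lowest and highest fold at 5 cpm or more, and any unadjusted p under 0.05 were named. Genes with few counts were named after their values were seen. The members and lists were chosen with earlier results of these data known. Alternatives were RLE size factors, library totals, DESeq2 1.42.0, other filters, thinned counts, libraries left out, a block for replicate number and a covariate for Xist. The script was tested on simulated data in which only better-counted genes were changed, and by a large fold. That test does not cover members with few counts or small changes. Precision is limited by the depth of 841974 to 1098125 counts.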

Additional observations from a re-analysis of the deposited data

Results flagged for a closer look

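In 3 of 20 groups of mice, 1 mouse was far from the others of that genotype by Dixon's criterion. For continuous, normally distributed values 1 in 20 groups, here 1, is what chance gives. Nfkb1 was at 36.0 cpm in DJ-1-/- replicate 1 (36 counts), and the other DJ-1-/- mice were at 27.3 cpm or less. Nfkb2 was at 15.5 cpm in DJ-1-/- replicate 4 (15 counts). Nfkbid was at 4.51 cpm in DJ-1+/+ replicate 4, which is 4 counts where the other DJ-1+/+ mice had 2. For counts this low and tied that chance rate does not hold. For Nfkb1 and Nfkb2 the gap was 0.711 and 0.722 of the group's range, just above the critical 0.71.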

How the results depend on the processing

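No member had an unadjusted p under 0.05 under any alternative (179 edgeR or DESeq2 values, smallest p 0.161, and 120 exact permutation values, smallest p 0.0952). The direction turned in 13 and 13 of these, all by leaving out libraries, and kept its sign in the rest. Leaving out 1 library each, the log2 fold change ran from −0.295 to 0.0492 for Nfkb1, −0.0195 to 0.49 for Nfkb2, −0.16 to 0.31 for Rel, −0.0694 to 0.33 for Relb, −0.0282 to 0.12 for Nfkbib, −0.36 to 0.0159 for Nfkbiz and −0.53 to 0.0259 for Nfkbid, and stayed on one side of 0 for Rela (−0.21 to −0.03), Nfkbia (0.0069 without DJ-1-/- replicate 4 to 0.14) and Nfkbie (0.0077 without DJ-1-/- replicate 1 to 0.49). Thinning every library to 841974 counts took Nfkbid from −0.27 to −0.99 (edgeR, unadjusted p = 0.170). The thinning was a single random draw, and Nfkbid had only 22 counts before it. The difference in mean cpm ran from −6.25 to 0.889 for Nfkb1, −0.063 to 3.31 for Nfkb2, −2.10 to 3.41 for Rel, −0.671 to 2.998 for Relb, −1.07 to 7.22 for Nfkbib, −0.0040 to 1.98 for Nfkbie, −2.39 to 0.066 for Nfkbiz and −0.935 to 0.0499 for Nfkbid. Without both DJ-1+/+ replicates 1 and 4, Nfkbiz turned to 0.18 on the log2 scale (0.953 cpm) and Nfkbid to 0.0439 (0.0751 cpm), and the cause was not tested.

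Genes with an adjusted p under 0.05 numbered 1, but 36 with no filter on low counts, 8 with the replicate block, and 1 to 2 with a library left out (2 without DJ-1+/+ replicate 2 or 3). Genes with an unadjusted p under 0.05 numbered 513, but 235 with DESeq2, 802 with no filter, and 338 to 732 with a library left out (338 without DJ-1-/- replicate 2). Pathway genes with an unadjusted p under 0.05 numbered 1, but 0 with DESeq2, 2 with no filter, 2 with Xist as a covariate, 5 without DJ-1+/+ replicates 1 and 4, and 1 to 6 with a library left out (6 without DJ-1+/+ replicate 4, and 2 without DJ-1+/+ replicates 2 or 3 or DJ-1-/- replicates 1 or 5). Beside Irak1 these were Csf1, Tab2, Tbk1, Btrc, Traf1, Bcl3, Tlr2, C3 and Plau, each under 1 or more of these alternatives, or without DJ-1+/+ replicate 1 or DJ-1-/- replicate 2 in place of Irak1, with adjusted p of 0.86 or more. The cause was not tested. The replicate numbers are shared between genotypes, and nothing says that they pair mice. Deviations of same-numbered mice correlated at 0.29, 0.041, −0.119 and −0.186 over 10770 genes, and the block gave no member an unadjusted p under 0.05. At this depth Nfkbie and Nfkbid were near the limit of detection.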
